A study of Mus musculus with 18 samples.

Results

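The FGF receptors *Fgfr1*, *Fgfr2*, *Fgfr3* and *Fgfr4* were followed through mRNA, ribosome-protected fragments (RPFs) and translational efficiency (TE, the RPFs of a gene relative to its mRNA) in 3 tissues of the mouse embryo at E11.5. They were selected by name. All 4 were found in both deposited tables, among 12064 genes in the mesoderm table and 11231 genes in the table of the neural tube (NT) and forelimb buds (FL). RNA-Seq and Ribo-Seq, the sequencing of the mRNA stretches that ribosomes cover, were available for 3 replicates of each tissue, which gives 18 libraries in 6 groups. Mesoderm cells were sorted as GFP+ from embryos that carried the reporter allele R26-mTmGflox/+ and the transgene Tg(T-cre)1LWD/J/+. In them T-Cre switches membrane Tomato to membrane GFP in descendants of the primitive streak. A level is therefore an average over all sorted cells, in which the study includes paraxial, lateral plate and intermediate mesoderm. NT and FL were dissected from wildtype FVB embryos, both tissues from the same embryos. All tissues were collected in cycloheximide, a drug that holds ribosomes on the mRNA.

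FGF receptors are receptor tyrosine kinases of the cell surface. Binding of an FGF together with heparan sulphate pairs 2 receptors, whose kinase domains then phosphorylate each other, the docking protein FRS2 and phospholipase C gamma, and signals pass on through Ras to ERK and through PI3K to Akt. In the limb bud, FGFs from the apical ectoderm act on receptors of the mesenchyme and mesenchymal FGFs act on receptors of the ectoderm, whereas in the neural tube FGF signals bear on the growth and fate of progenitor cells. *Fgfr1*, *Fgfr2* and *Fgfr3* are spliced into forms with different ligand-binding domains, and each table holds 1 entry per receptor, so that splice forms were not measured separately.

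The receptors lie on different chromosomes. On GRCm38, in the GENCODE annotation, *Fgfr1* (uc009lfy.2) spans chr8:25513654-25575718 on the plus strand and *Fgfr3* (uc008xbf.3) spans chr5:33721674-33737068 on the plus strand. *Fgfr4* (uc007qqb.1) spans chr13:55152640-55168759 on the plus strand. *Fgfr2* (uc033jcj.1) is on the minus strand, where the coding transcript with the longest CDS, Fgfr2-215, covers chr7:130163709-130266191. The longest CDS had 833 codons in *Fgfr1*, 840 in *Fgfr2*, 802 in *Fgfr3* and 799 in *Fgfr4*, and each receptor's longest coding transcript had 18 exons. TE rests on ribosomes that entered at the start codon, so the 4 start codons of these transcripts are shown with 12 bases on either side, the ATG in capitals, 5′ to 3′ on the coding strand.
Fgfr1: cgcagaactgggATGtggggctggaag
Fgfr2: agaagtgtgcagATGggattaccgtcc
Fgfr3: cgctctggagccATGgtagtcccggcc
Fgfr4: agctggaaggaaATGtggctgctcttg
The ATG was at chr8:25532338-25532340 in *Fgfr1*, chr7:130261912-130261914 in *Fgfr2*, chr5:33722409-33722411 in *Fgfr3* and chr13:55155490-55155492 in *Fgfr4*. Counted from the A of the ATG, *Fgfr3* was the only one of the 4 with both a purine at position -3 and a G at position 4, a combination that 41.0% of 20354 annotated coding genes have. *Fgfr1* and *Fgfr4* had the purine alone, and *Fgfr2* the G alone. Upstream of their start codons, the complete coding transcripts held 1 to 3 ATGs in *Fgfr1* (6 transcripts), 2 to 3 in *Fgfr2* (4 transcripts), 1 in *Fgfr3* (7 transcripts) and 0 in *Fgfr4* (1 transcript). In *Fgfr2* the count of 3 was that of Fgfr2-217, which has 182 codons and another start codon, and Fgfr2-215 had 2. At least 1 upstream ATG was present in 53.4% of all genes. These counts describe annotated transcripts, and the 5′ ends used in these tissues were not measured.

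The receptors are related in sequence, which raises the question whether a read can be given to the right gene. Within the counted part of the CDS, no stretch of 28 nt, the shortest footprint kept, was shared between any 2 of the receptors. The longest run in common was 26 nt, between *Fgfr1* and *Fgfr3*, shown here in capitals with 12 flanking bases.
Fgfr1 run: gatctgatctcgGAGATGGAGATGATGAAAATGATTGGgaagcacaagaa
Fgfr3 run: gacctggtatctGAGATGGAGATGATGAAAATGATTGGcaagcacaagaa
It begins at base 1624 of the *Fgfr1* CDS and base 1561 of the *Fgfr3* CDS. Only exact matches were searched. Longer stretches with a mismatch, such as this run continued past the base that ends it, were not counted, so misplaced reads are not excluded. Of 2319 stretches of 28 nt in *Fgfr3*, 44 (1.9%) also occur in the annotated pseudogene Fgfr3-ps, and 1 of 2310 in *Fgfr4* occurs in *Tie1*.

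The RNA-Seq libraries held 24555103 to 50136443 reads on the genes of the tables, and the Ribo-Seq libraries 11000015 to 31993255. The fewest receptor reads were 110, for *Fgfr4* in NT Ribo-Seq, and the most were 27479, for *Fgfr1* in mesoderm RNA-Seq. Ribo-Seq replicate 3 of FL stood apart, with a Pearson r across genes of 0.89 and 0.90 to the other FL Ribo-Seq libraries, which reached 0.98 with each other. Ribo-Seq replicate 3 of NT was at 0.93 to both others, against 0.99 between them. NT RNA-Seq replicate 1 was at 0.95 to both others, against 0.97 between them. In the mesoderm, RNA-Seq replicate 1 was at 0.94 and 0.95 to the others, against 0.99 between them, and Ribo-Seq replicates 1 and 2 were at 0.92 to each other and 0.96 to replicate 3. All 5 neural markers fell in FL against NT in mRNA and in RPFs (*Nes*, *Fabp7*, *Dcx*, *Nefm* and *Ncam1*). Among 6 limb and mesenchyme markers, 5 rose in both measures, and *Lhx2* passed in neither. A rise or fall here is a change of at least 2-fold with a limma adjusted p under 0.05. Of all genes, 9.49% fell and 7.82% rose in FL mRNA, and 17.8% fell and 14.9% rose in FL RPFs. Summed neural markers were 37832 to 60667 normalized reads in NT RNA-Seq and 6831 to 8346 in FL RNA-Seq, and summed limb and mesenchyme markers 3473 to 3958 and 30109 to 36273. In the mesoderm, limb and mesenchyme markers summed to 18014 to 20224 normalized reads in RNA-Seq, and neural markers to 9658 to 12359. There 4 blood markers summed to 3021 to 13448.5 in RNA-Seq and 10792 to 89690 in RPFs. The 5 endothelial markers in the mesoderm table summed to 1447 to 3377 in RNA-Seq. Markers of other cells were read in every tissue, and no marker in the tables was at 0. In RNA-Seq, 3 blood markers summed to 11553 to 20322 in NT and 13786 to 24191 in FL, 6 endothelial markers to 4574 to 4943 and 3240 to 4568, and *Epcam* of epithelium was at 96.0 to 659 and 537 to 689.6. In RPFs *Epcam*, *Hba-x*, *Hba-a2* and *Sox17* rose in FL. *Sox17* was the exception among the 6 endothelial markers, of which 5 had estimates under 0 (median log2 change -0.39). The part of these cells in the receptor results was not tested. In such samples fewer cells of a type and less RNA per cell cannot be told apart.

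*Fgfr3* was the most abundant FGF receptor of the neural tube and *Fgfr1* that of the forelimb buds and mesoderm. The level used here to set receptors side by side was normalized reads per kb of counted CDS, which is the longest CDS without the first 15 and last 5 codons. In NT RNA-Seq, *Fgfr3* had 2793, 2654 and 2449 per kb in replicates 1 to 3 and *Fgfr1* had 1928, 1598 and 1756. *Fgfr2* followed with 1023, 1040 and 715. *Fgfr4* was lowest with 117, 53.2 and 94.2. No neighbours in this order overlapped, and *Fgfr3* was 1.49 times *Fgfr1* on the means.

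In FL RNA-Seq the order was *Fgfr1*, *Fgfr2*, *Fgfr3* and *Fgfr4*. *Fgfr1* had 4653, 4672 and 4456 normalized reads per kb and *Fgfr2* had 1137, 1215 and 1032. *Fgfr3* had 831, 812 and 651, and *Fgfr4* had 372, 271 and 312. Again no neighbours overlapped. The mesoderm had the same order, with *Fgfr1* at 4185, 5383 and 5135 and *Fgfr2* at 944.9, 975 and 1007 in its own table. There, *Fgfr3* (323, 500 and 521) and *Fgfr4* (190.3, 175 and 333) overlapped.

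As a share of the 4 receptors in each library, which needs no scaling between tables, *Fgfr3* made up 48.7% ± 1.01 of NT mRNA (SD, n = 3) and 11.2% ± 0.97 of FL mRNA. Its share of mesoderm mRNA was 6.76% ± 0.92. The share of *Fgfr1* was 32.6% ± 2.58 in NT, 67.5% ± 1.35 in FL and 74.7% ± 1.63 in the mesoderm. The share of *Fgfr2* was 17.1% ± 2.62 in NT, 16.6% ± 0.77 in FL and 15.0% ± 1.53 in the mesoderm, with ranges that overlapped. *Fgfr4* contributed least, 1.62% ± 0.55 in NT, 4.68% ± 0.73 in FL and 3.54% ± 1.14 in the mesoderm.

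**Figure D1:**
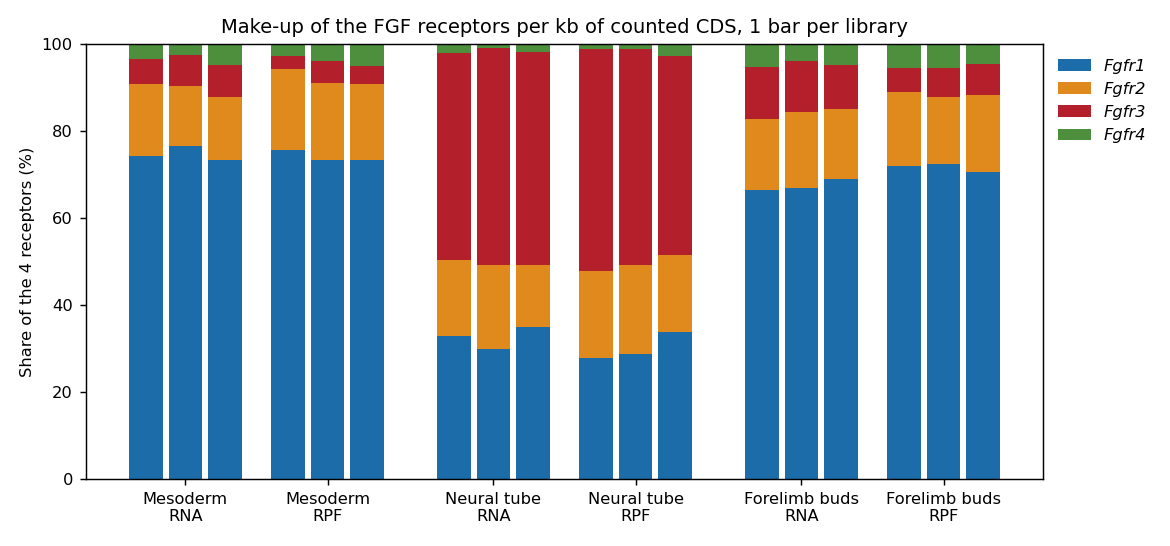
Share (%) of each FGF receptor in the sum of the 4, on normalized reads per kb of counted CDS, with 1 stacked bar for each of the 18 libraries, grouped by tissue and by library type (RNA, RNA-Seq and RPF, Ribo-Seq). *Fgfr3* takes 45.6% to 50.9% of every NT bar and at most 11.9% of any FL or mesoderm bar.

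The RPFs gave a different picture of the lower receptors. In FL, *Fgfr3* was 11.2% of the receptor mRNA and 6.29% ± 0.80 of the receptor RPFs, and the 3 Ribo-Seq values (5.42%, 6.45% and 6.99%) all lay under the 3 RNA-Seq values (11.9%, 11.7% and 10.1%). In the mesoderm its share was 6.76% in mRNA and 4.05% ± 1.13 in RPFs, and again no Ribo-Seq value (2.87%, 5.13% and 4.16%) reached the lowest RNA-Seq value of 5.72%. In NT it was 48.7% in both, with 48.7% ± 2.80 in RPFs. As a result, *Fgfr3* and *Fgfr4* differed in FL mRNA but overlapped in FL RPFs, at 137, 181 and 324 against 141, 158 and 215 RPFs per kb.

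The ratio of *Fgfr3* to *Fgfr1* within a library, which no scaling of libraries can change, was chosen for description after these values had been seen. In NT it was 1.45, 1.66 and 1.39 in RNA-Seq and 1.83, 1.72 and 1.34 in Ribo-Seq, and the ranges overlapped. In FL it was 0.178, 0.174 and 0.146 in RNA-Seq and 0.0753, 0.0890 and 0.0991 in Ribo-Seq, without overlap. In the mesoderm it was 0.0771, 0.0930 and 0.101 in RNA-Seq and 0.0379, 0.0698 and 0.0566 in Ribo-Seq, also without overlap. The FL Ribo-Seq library that stood apart had the highest of the 3 FL Ribo-Seq ratios and still lay under every FL RNA-Seq ratio.

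Among the receptor kinases that the study lists, 46 in the mesoderm table and 39 in the other, *Fgfr1* was second highest in mRNA per kb in the mesoderm, behind *Ptk7*, and in FL, where *Pdgfra* was level with it at 4596 against 4594 per kb. It ranked 5 of 39 in NT. *Fgfr3* was second in NT, behind *Ddr1*, and ranked 19 of 39 in FL and 22 of 46 in the mesoderm. *Fgfr2* ranked 11 of 39 in NT, 13 of 39 in FL and 18 of 46 in the mesoderm. *Fgfr4* ranked 37 of 39 in NT, 28 of 39 in FL and 30 of 46 in the mesoderm. By RPFs per kb, each of the 4 receptors ranked further down in each tissue than by mRNA. *Fgfr3* ranked 7 in NT, 31 in FL and 35 in the mesoderm. In the same order of tissues, *Fgfr1* ranked 10, 4 and 6, *Fgfr2* 15, 16 and 19, and *Fgfr4* 38, 32 and 36. These ranks order means, and many neighbours lie within each other's spread.

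The comparison of FL with NT asked how each receptor differed between tissues of the same embryos. It was made with limma on log2(normalized reads + 1) over all 12 NT and FL libraries, and a gene was called where it changed at least 2-fold and its Benjamini-Hochberg adjusted p was under 0.05. Of all 11231 genes, 9.49% were lower and 7.82% higher in FL mRNA, and 17.8% were lower and 14.9% higher in FL RPFs, so that a call of this kind was common.

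*Fgfr3* mRNA was 6551, 6226 and 5744 normalized reads in NT and 1949, 1906 and 1527 in FL. All FL values lay far under all NT values. It fell by 1.79 ± 0.26 (SE) on the log2 scale, or 3.46-fold (adjusted p = 1.80e-04). Its RPFs numbered 3661, 3953 and 3817 in NT and 322, 424 and 759.9 in FL, again without overlap. They fell by 3.02 ± 0.26, or 8.09-fold (adjusted p = 1.22e-06). Without FL replicate 3 the fall in RPFs was -3.36, and without NT replicate 3 it was -3.01.

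*Fgfr1* went the other way. Its mRNA was 4702, 3897 and 4282 normalized reads in NT and 11349, 11395 and 10869 in FL, and rose 2.62-fold (log2 change 1.39 ± 0.23, adjusted p = 4.72e-04). Its RPFs numbered 2081, 2383 and 2956 in NT and 4448, 4953 and 7973 in FL, and rose 2.29-fold (log2 change 1.19 ± 0.23, adjusted p = 0.00113). The highest of these was the FL library that stood apart. Without FL replicate 3 the change in RPFs was 0.94 (adjusted p = 7.80e-04), under the 2-fold limit.

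*Fgfr4*, the least abundant receptor here, also rose. Its mRNA was 273, 124 and 220.1 normalized reads in NT and 870.2, 634 and 729 in FL, a 3.76-fold rise (log2 change 1.91 ± 0.39, adjusted p = 0.00263). Its RPFs numbered 79.5, 96.8 and 232 in NT and 329, 369 and 503 in FL, a 3.22-fold rise (log2 change 1.69 ± 0.39, adjusted p = 0.00413). The groups did not overlap in either measure. With 1 replicate left out the log2 change in RPFs ranged from 1.39 (without NT replicate 1) to 2.15 (without NT replicate 3), and was 1.51 without FL replicate 3, called in each. Within NT the values of *Fgfr4* varied more than those of the other receptors, and its standard error was the largest of the 4.

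*Fgfr2* passed neither test. Its mRNA was 2517, 2558 and 1759 normalized reads in NT and 2797, 2990 and 2538 in FL, with a log2 change of 0.30 ± 0.26 (95% interval -0.25 to 0.85, adjusted p = 0.49). Its RPFs numbered 1517, 1699 and 1555 in NT and 1063, 1070 and 2030 in FL. They overlapped between the tissues, because 1 FL library was above and the others below all NT values, and the log2 change was -0.27 ± 0.26 (95% interval -0.82 to 0.29, adjusted p = 0.41). Without FL replicate 3 it was -0.57 (adjusted p = 0.022), still under 2-fold. Of the 4 receptors, then, 1 was called lower and 2 higher in both mRNA and RPFs.

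**Figure D2:**
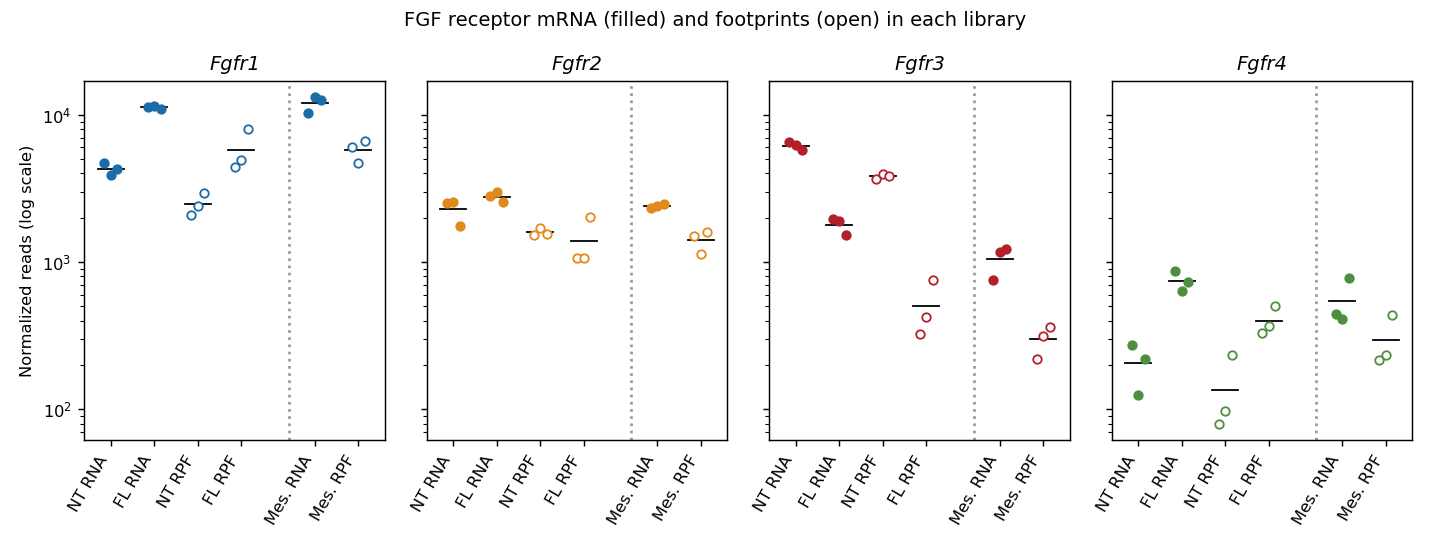
Normalized reads (log scale) of each receptor in each library, with filled points for RNA-Seq, open points for Ribo-Seq and a line at the mean of 3. Mes., mesoderm, is right of the dotted line since its table was normalized on its own and is not to be read against the others. *Fgfr3* is lower in FL than in NT in both library types, *Fgfr1* and *Fgfr4* are higher, and *Fgfr2* RPFs overlap.

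TE was then compared in each tissue with that of all other genes. Log2 TE was centred on the median gene, and genes at least 3-fold from that median with an adjusted p under 0.05 were called TE-low or TE-high. Of the genes tested in the mesoderm, 10.9% were TE-low and 1.17% TE-high. The TE-low share was 4.13% in NT and 13.4% in FL, and the TE-high share 0.436% and 6.25%. The receptors all had a mean log2 TE under 0 in all 3 tissues, with a median over the 4 of -1.003 in the mesoderm, -0.72 in NT and -1.04 in FL, against 0 over all genes by construction. Only *Fgfr3* in the mesoderm and *Fgfr3* in FL passed as TE-low, and no receptor was TE-high.

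In the mesoderm, *Fgfr3* had a log2 TE of -1.81, -1.93 and -1.78 in the 3 replicates, tighter than the other receptors. The fit gave -1.84 ± 0.17 (SE), 3.58-fold under the median gene (limma, adjusted p = 9.57e-06), and 7.83% of genes were as low or lower. It rested on 757, 1174 and 1222 normalized reads in RNA-Seq and 220.5, 315 and 364 in Ribo-Seq. *Fgfr1* had -0.79, -1.52 and -0.94, *Fgfr4* had -1.06, -0.84 and -0.87, and *Fgfr2* had -0.67, -1.12 and -0.67. The 3 *Fgfr3* values lay under all 9 of the others. *Fgfr1*, *Fgfr2* and *Fgfr4* were 1.76-fold to 2.12-fold under the median gene, with adjusted p from 6.72e-04 to 0.00204, and overlapped each other. Without mesoderm replicate 1 the log2 TE of *Fgfr3* was -1.84, and without replicate 2 it was -1.81, both called.

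In FL, *Fgfr3* had a log2 TE of -2.60, -2.17 and -1.01 from same-numbered libraries. The fit gave -1.92 ± 0.26, 3.80-fold under the median gene (limma, adjusted p = 1.93e-04). The value from replicate 3, the library that stood apart, was the nearest to 0, as it was for every receptor in FL. Without FL replicate 3 the *Fgfr3* estimate was -2.40 (limma, adjusted p = 4.03e-06). It was -1.595 (adjusted p = 0.00586) without FL replicate 1 and -1.81 (adjusted p = 0.00747) without FL replicate 2. *Fgfr3* stayed TE-low in each, though without FL replicate 1 it lay close to the 3-fold limit. *Fgfr1* had -1.35, -1.21 and -0.45, with a fitted TE 2.01-fold under the median gene (adjusted p = 0.00282). *Fgfr2* had -1.40, -1.49 and -0.33, with a fitted -1.07 ± 0.26 (adjusted p = 0.0036). *Fgfr4* had -1.41, -0.78 and -0.54, with a fitted -0.91 ± 0.39 (adjusted p = 0.062). For *Fgfr1*, *Fgfr2* and *Fgfr4* the log2 TE without FL replicate 3 was -1.29, -1.46 and -1.11, and none was called. Replicate by replicate, *Fgfr3* was the lowest of the 4, although its replicate 3 overlapped the values of the others.

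In NT, *Fgfr3* did not stand under the other receptors. Its log2 TE was -0.87, -0.69 and -0.62, with a fitted -0.72 ± 0.26 (limma, adjusted p = 0.059). *Fgfr1* had -1.21, -0.74 and -0.56, with a fitted -0.84 ± 0.23 (adjusted p = 0.019). *Fgfr2* had -0.76, -0.62 and -0.21, with a fitted -0.53 ± 0.26 (adjusted p = 0.14). The values of *Fgfr4*, -1.79, -0.39 and 0.05, spread over nearly 2 units, and its fitted -0.71 ± 0.39 did not pass (adjusted p = 0.19). The fitted value of *Fgfr4* was -0.18 without NT replicate 1 and -1.09 without NT replicate 3. Over all 3 ways of leaving out an NT replicate, *Fgfr1* ranged from -0.97 to -0.66, *Fgfr2* from -0.69 to -0.43 and *Fgfr3* from -0.78 to -0.67, and none was called. The 4 receptors overlapped throughout, and none was called.

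**Figure D3:**
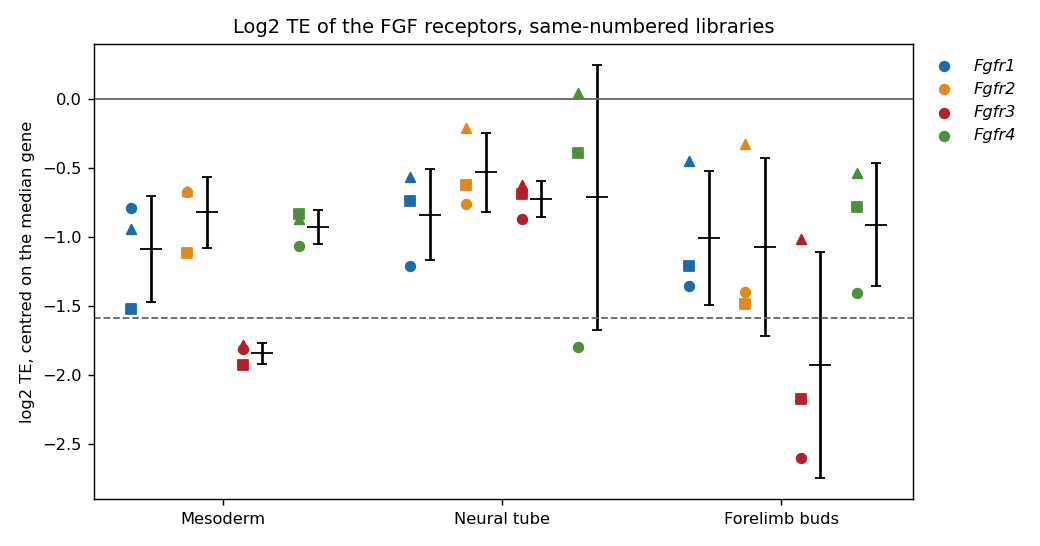
Log2 TE of each receptor in the 3 tissues, centred on the median gene (solid line); circles, squares and triangles are same-numbered libraries of replicates 1, 2 and 3, and the black bars are the mean ± SD (n = 3). The dashed line is 3-fold under the median, and only the means of *Fgfr3* in the mesoderm (-1.84) and FL (-1.92) lie under it.

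The change in TE between FL and NT was tested as the interaction of library type and tissue, with calls made from 2-fold upwards where the adjusted p was under 0.2, the limits the study's methods use. Over all genes 0.276% were lower and 0.125% higher in FL by limma. The study used these limits in a DESeq model of counts and called many more genes in each direction. DESeq2 on whole reads recovered from the normalized values called 285 lower and 568 higher. In the limma fit no receptor was called. *Fgfr3* had the largest estimate of the 4, -1.23 ± 0.37 on the log2 scale, a TE 2.34-fold lower in FL (95% interval -2.03 to -0.42). Its unadjusted p was 0.0059 and its adjusted p 0.29, and 8.25% of all genes had an estimate as low. *Fgfr2* had -0.57 ± 0.36 (adjusted p = 0.35), *Fgfr4* -0.22 ± 0.56 (adjusted p = 0.81) and *Fgfr1* -0.19 ± 0.32 (adjusted p = 0.72), each with an interval that includes 0. These estimates moved with single libraries. That of *Fgfr2* without FL replicate 3 was -0.94 (limma, adjusted p = 0.0248, under 2-fold), that of *Fgfr1* -0.47 and that of *Fgfr4* -0.41, and over all replicates left out in turn they ranged from -0.94 to -0.36, from -0.47 to -0.02 and from -0.76 to 0.16.

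Whether *Fgfr3* was called here depended on the third replicates. Without FL replicate 3 its change in TE was -1.68 (limma, adjusted p = 0.00209), and without NT replicate 3 it was -1.17 (adjusted p = 0.195), both past the thresholds, but these settings also raised the calls over all genes from 31 lower and 14 higher to 2167 and 1805 or to 1235 and 1000. With DESeq2 on the reads recovered from the tables it was -1.14 (adjusted p = 0.138) and was called, and with edgeR it was -1.14 (adjusted p = 0.299) and was not.

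**Figure D4:**
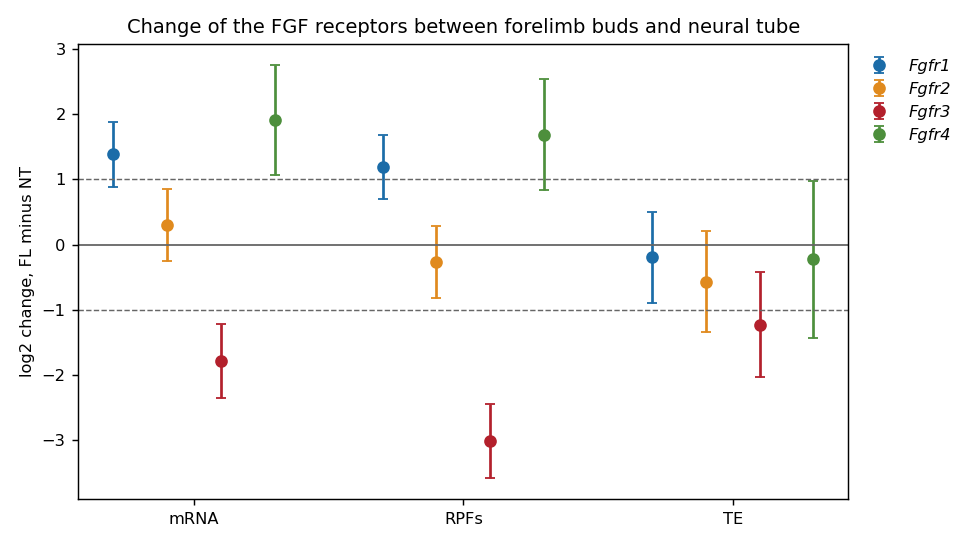
Log2 change of each receptor, FL minus NT, in mRNA, RPFs and TE, as the limma estimate with its 95% interval from 12 libraries; dashed lines mark 2-fold. *Fgfr3* lies under -1 in all 3 measures (-1.79, -3.02 and -1.23), but its change in TE was not called (adjusted p = 0.29).

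Set among the receptor kinases, the log2 TE of *Fgfr3* ranked 3 from the lowest of 46 in the mesoderm, after *Aatk* (-2.72) and *Ryk* (-2.30), and 3 of 39 in FL, after the same genes (-2.41 and -2.23). It ranked 6 of 39 in NT, where *Ryk* was lowest at -2.08. *Fgfr1* ranked 7, 4 and 10 in the mesoderm, NT and FL, *Fgfr4* 11, 7 and 13, and *Fgfr2* 12, 9 and 9. The other receptor kinases had a median log2 TE of -0.27 in the mesoderm, 0.17 in NT and -0.56 in FL, and each FGF receptor lay under that median in each tissue. Among these other kinases 3 of 42 were TE-low in the mesoderm (*Aatk*, *Ryk* and *Epha8*), against 10.9% of all genes. In NT it was 1 of 35 (*Ryk*), against 4.13%, and in FL 2 of 35 (*Aatk* and *Ryk*), against 13.4%. Only *Csf1r* in FL, the receptor of macrophages, was TE-high. In FL, 6 of 35 were TE-low without FL replicate 3, where the number over all 11231 genes went from 1502 to 2028.

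**Figure D5:**
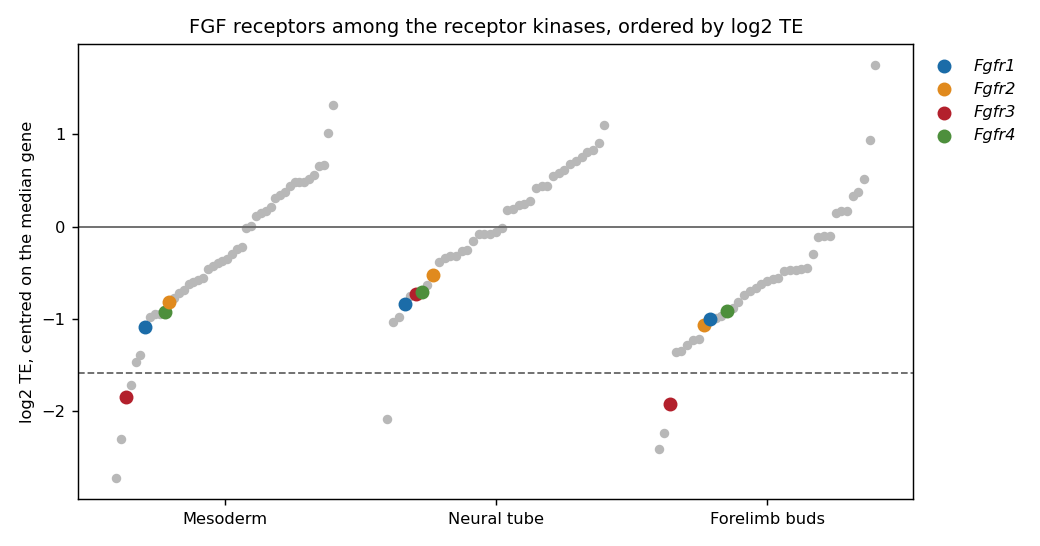
Log2 TE of the receptor kinases, centred on the median gene (solid line) and ordered from low to high within each tissue, 46 genes in the mesoderm and 39 in NT and FL; coloured points are the FGF receptors and grey points the others. The dashed line is 3-fold under the median, with *Fgfr3* under it in the mesoderm and FL.

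Between the tissues, 14 of these 35 other kinases rose and 5 fell in FL mRNA, against 7.82% and 9.49% of all genes. In RPFs 11 rose and 8 fell, against 14.9% and 17.8% of all genes. The largest rises in mRNA were of *Pdgfra* and *Ddr2*, receptors of mesenchyme, and *Mertk*, at 22.9-fold, 21.6-fold and 15.6-fold. The largest falls were of *Ntrk2*, the BDNF receptor of neurons (8.25-fold), *Ephb1* (6.78-fold) and *Ddr1* (6.61-fold). In RPFs the same 6 genes led, with *Ntrk2* 8.98-fold lower and *Ddr2* 11.4-fold higher. None of the 35 was called in TE, and 32 of the 35 estimates were under 0. The median estimate was -0.63, against 0.01 over all genes. Without FL replicate 3, 14 were lower and 1 higher in TE, against 2167 and 1805 of all 11231 genes. Without NT replicate 3 it was 4 and 1, against 1235 and 1000.

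Over the 12 NT and FL libraries, after the mean of each gene in each library type was removed, the genes of the study's signalling figure most like *Fgfr3* were *Map3k13* (Pearson r = 0.992), *Ephb2* (0.989) and *Ddr1* (0.974), out of 150 compared. Those most like *Fgfr1* were *Ptk7* (0.990), *Ephb4* (0.988) and *Erbb3* (0.984). *Ptk7* (0.9749), *Prkcd* (0.964) and *Fgfr1* (0.954) were most like *Fgfr4*. *Fgfr2* had no match this close, with *Irs2* (0.875), *Igf1r* (0.826) and *Adcy6* (0.815) at the top. Between receptors, *Fgfr3* stood at -0.82 to *Fgfr1* and -0.81 to *Fgfr4*. The libraries form 2 tissue groups, so these values mostly describe the difference between NT and FL and carry no test.

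Downstream of the receptors, 1 of the 13 genes of the Ras-ERK route was TE-low in the mesoderm, against 10.9% of all genes. In FL 1 was TE-low, against 13.4% of all genes, and 1 was lower in RPFs, against 17.8%. *Sos2*, an exchange factor that loads Ras with GTP, was TE-low in the mesoderm (-2.15 ± 0.23) and in FL (-2.28 ± 0.48), and its RPFs fell in FL (2.71-fold, adjusted p = 0.026). No other gene of the route was called with all libraries, and none in mRNA. When FL replicate 3 was left out, 2 genes of the route were TE-low and 1 TE-high in FL, 1 was lower in mRNA and 3 were lower in RPFs. Of all 11231 genes, 2028, 1393, 1088 and 2715 were called in these ways in that setting. Without NT replicate 3, 3 genes of the route were lower in RPFs, against 2248 of all genes. The call of *Sos2* in RPFs was lost without NT replicate 1 (-1.19) or 2 (-1.20) and without FL replicate 1 (-1.25) or 2 (-1.14). *Grb2*, the adaptor that brings Sos to the receptor complex, had the opposite sign, with a log2 TE of 1.06 in the mesoderm, 0.76 in NT and 1.57 in FL, none of them 3-fold. The median log2 TE of the list was -0.22, -0.26 and 0.01 in the mesoderm, NT and FL.

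Both phospholipase C gamma genes, which the receptors phosphorylate, were TE-low in the mesoderm, against 10.9% of all genes. *Plcg1* was at -2.04 ± 0.26 and *Plcg2* at -1.89 ± 0.32, which was no longer 3-fold without mesoderm replicate 2 (-1.49). *Plcg1* was also TE-low in FL (-2.44 ± 0.53), where its RPFs were 1036, 1036 and 5736 normalized reads, the last from the library that stood apart. Neither was called in NT or, with all libraries, in a change between the tissues. With FL replicate 3 left out both were TE-low in FL and 1 was lower in RPFs, against 2028 and 2715 of all 11231 genes. Without NT replicate 3, 1 was lower in RPFs, against 2248 of all genes.

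Of the 10 genes of the PI3K-Akt route, 3 were TE-low in the mesoderm, against 10.9% of all genes, namely the catalytic subunits *Pik3cd* (-2.05) and *Pik3ca* (-1.75) and the regulatory subunit *Pik3r2* (-1.67). There were 5 without mesoderm replicate 1 and 2 without replicate 2. In FL *Pik3cd* (-3.04), *Pik3ca* (-2.27) and *Pik3cb* (-2.18) were TE-low, and in NT none was. Of all genes, 13.4% were TE-low in FL and 4.13% in NT. In mRNA *Pik3cd* fell in FL, by 4.67-fold. In RPFs falls were called for *Pik3cd* (14.7-fold), *Pik3cb* (4.57-fold), *Pik3r3* (3.35-fold) and *Pik3r1* (2.31-fold), and no gene of the route rose. Over all genes 17.8% were lower and 14.9% higher in RPFs. *Pik3cd* had only 8.02, 34.1 and 83.6 normalized reads in FL Ribo-Seq, so that the size of its fall is uncertain. Several of these calls were lost with 1 replicate left out. These were *Pik3ca* TE in the mesoderm without replicate 2 (-1.55), *Pik3cb* TE in FL without FL replicate 2 (-1.24), and *Pik3cb* RPFs without FL replicate 2 (-1.24), NT replicate 1 (-1.94) or NT replicate 2 (-1.88). In mRNA the call of *Pik3cd* was lost without FL replicate 2 (-2.20), NT replicate 1 (-2.18) or NT replicate 3 (-2.20). No gene of the 3 routes was called in TE between the tissues, but without FL replicate 3 there were 2 lower and 2 higher in the Ras-ERK route, 1 lower among the phospholipase C gamma genes and 4 lower in the PI3K-Akt route. Without NT replicate 3 there were 1 lower and 1 higher in the Ras-ERK route and 2 lower in the PI3K-Akt route. Of all 11231 genes, 2167 were lower and 1805 higher without FL replicate 3, and 1235 and 1000 without NT replicate 3.

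The last list held 12 genes around the receptors, the ligand *Fgf18*, the docking proteins *Frs2* and *Frs3*, the receptor partner *Flrt1*, the inhibitors *Spry1*, *Spry2*, *Spry4*, *Spred1* and *Spred2*, and *Dusp6*, *Etv4* and *Etv5*, which FGF signals are known to induce. Their identifiers came from tables that the study ordered by its own calls, so that their counts support nothing about FGF genes at large. In FL mRNA 6 rose and 1 fell, against 7.82% and 9.49% of all genes, and in RPFs 8 rose and 2 fell, against 14.9% and 17.8%. Only 2 rose in mRNA without FL replicate 1, FL replicate 2, NT replicate 2 or NT replicate 3. There were 4 without FL replicate 3 and 7 without NT replicate 1. Over all genes, 878 were higher in mRNA with all libraries and 695 to 895 with 1 replicate left out. In RPFs 7 or 8 of the 12 rose with any replicate left out. Over all genes, the number higher in RPFs was 1675 with all libraries. It ranged from 1123 (without FL replicate 2) to 2383 (without FL replicate 3).

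*Dusp6*, a phosphatase that switches off ERK, rose most in mRNA, from 1569, 823 and 738 normalized reads in NT to 3826, 3833 and 3478 in FL (3.77-fold, limma adjusted p = 1.06e-04). *Etv5* and *Etv4*, ETS transcription factors, followed at 3.61-fold and 3.53-fold, and *Frs3* fell 2.11-fold. In RPFs *Spry1* (8.12-fold), *Etv4* (7.36-fold) and *Dusp6* (7.31-fold) rose most, while *Frs3* (3.97-fold) and *Flrt1* (2.58-fold) fell. NT RNA-Seq replicate 1 read apart from the other NT libraries for the induced genes. It held 1209 normalized reads of *Etv4* against 164 and 169.8, 1527 of *Etv5* against 257 and 216, and 659 of the epithelial marker *Epcam* against 96.0 and 107. The mRNA calls of both genes depended on single libraries. Without NT replicate 1 the log2 change in mRNA was 2.77 for *Etv4*, and with any other replicate left out it was 1.33 to 1.86 and no longer called. For *Etv5* it was 2.75 without NT replicate 1, and the call was lost without FL replicate 1 (1.81), FL replicate 2 (1.91), NT replicate 2 (1.47) or NT replicate 3 (1.34). Both calls were also lost in edgeR (1.14 and 1.25) and DESeq2 (1.15 and 1.26). The fall of *Frs3* mRNA was lost without NT replicate 1 (-1.06) or 2 (-1.14) and without FL replicate 2 (-1.03) or 3 (-0.96), and that of *Flrt1* RPFs without NT replicate 1 (-1.19), FL replicate 1 (-0.97) or FL replicate 2 (-1.21).

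*Frs3* was TE-low in all 3 tissues, at -3.40 ± 0.27 in the mesoderm, -1.76 ± 0.32 in NT and -2.65 ± 0.32 in FL. In the mesoderm it had 266, 373 and 339.7 normalized reads in RNA-Seq but 14.9, 45.6 and 40.6 in Ribo-Seq. Its NT call was lost without NT replicate 1 (-1.58). *Spred2* was TE-low in the mesoderm (-1.66, and -1.56 and not called without replicate 2) and NT (-1.95), and *Spry1* in NT (-1.78). *Frs2*, the main docking protein of the receptors, had -1.57, -0.92 and -1.41 in the mesoderm, NT and FL and was not called in any. None of the 12 was called in TE between the tissues with all libraries. Without FL replicate 3, 2 were lower and 4 higher, against 2167 and 1805 of all 11231 genes. Without NT replicate 3, 4 were higher, against 1000 of all genes. In FL, 4 were TE-low without FL replicate 3, against 2028 of all genes, and in the mesoderm 1 was without replicate 2.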

How the data were processed

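The authors trimmed adapters with cutadapt, discarded rRNA, tRNA and snRNA reads and aligned the rest to canonical UCSC isoforms of mm10; the submitters' processing notes name Bowtie2 and DESeq. Unique reads were counted over the coding sequence, leaving out 15 codons at its start and 5 at its end, and divided by DESeq library sizes. Tool versions are not given in the sources used here. The deposited signal values are these normalized reads. The 2 tables were scaled separately, so tests stayed within 1 table. Gene symbols were matched to UCSC identifiers through the study's supplement. Receptors and gene lists were chosen with earlier results of these data known.

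In all 18 libraries 100.0% of values under 200 normalized reads were, within rounding, multiples of 1 step, which gave whole reads. In R 4.3.3, log2 values of normalized reads, after adding 1, were tested with limma 3.58.1 and its variance trend, adjusted by Benjamini-Hochberg over all genes. A fold on this scale understates the change of low genes. The mesoderm fit had replicate as a block. There, deviations of same-numbered RNA-Seq and Ribo-Seq libraries correlated at 0.74, 0.58 and 0.57, and each replicate's cells were split between both. The study calls the replicates biological, and which embryos went into each was not known here. The p-values measure the spread between the replicates. Alternatives were edgeR 4.0.16, DESeq2 1.42.0, other pseudocounts, a filter, centring, blocks and leaving out replicates. Scripts were tested on simulated data. Named were the receptors and, from each list, the genes called, or the 3 largest changes in each direction where more than 6 were. Not every gene that this rule names is reported here. Lengths and sequences came from GENCODE M21 on GRCm38, whose isoforms may differ from those counted. Python 3.11.15, numpy 2.4.6, pandas 2.3.3 and scipy 1.17.1 were used.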

Additional observations from a re-analysis of the deposited data

How the results depend on the processing

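Of 284 values of the 24 receptor results under the alternatives, 278 kept their direction and their side of the threshold. The exceptions were in the change of *Fgfr3* TE, of *Fgfr4* TE and of *Fgfr1* RPFs. DESeq2 on recovered reads called the change in *Fgfr3* TE, at -1.14. With 1 replicate left out that change ranged from -1.68 to -0.89, and 2 of 6 such fits called it. For *Fgfr4* the change in TE ranged from -0.76 to 0.16 and turned positive without FL replicate 1 (0.03) or NT replicate 3 (0.16). The rise of *Fgfr1* RPFs ranged from 0.94 to 1.36 and was lost without FL replicate 3. The cause was not tested. Without length scaling the share of *Fgfr3* in NT mRNA was 47.7%, and the order of the receptors did not depend on it.

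The number of genes called in TE between the tissues moved most, from 31 lower and 14 higher to 5 and 1 with the replicate block, to 285 and 568 with DESeq2, and to 0 and 0 without FL replicate 1, FL replicate 2 or NT replicate 1. TE-high genes went from 141 to 72 without mesoderm replicate 2 and to 271 without mesoderm replicate 1, from 49 to 29 without NT replicate 3, and from 702 to between 379 and 1393 without an FL replicate. The study's methods also describe dividing dissociated neural tube cells between both library types. Same-numbered libraries did not deviate together in NT (correlations of -0.28, 0.35 and 0.05) or FL (0.05, 0.12 and 0.09). The pairing of numbers was therefore left out of the main fit there, a choice made from these values. They compare library types within a tissue, and whether same-numbered NT and FL libraries deviate together was not tested. The replicate block left the change in *Fgfr3* TE at -1.23 (limma, adjusted p = 0.38) and changed no receptor call in NT or FL, nor did the mesoderm fit with no replicate block, where *Fgfr3* stayed at -1.84 (adjusted p = 0.00252). Of 630 values of 53 results on pathway genes, 593 kept their call and none reversed. Depth limits *Fgfr4* most, with 110 to 160 reads in NT Ribo-Seq.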

Other observations

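In FL, Ribo-Seq replicate 3 held the most RPFs of each receptor among the 3 libraries, 7973 normalized reads of *Fgfr1*, 2030 of *Fgfr2*, 759.9 of *Fgfr3* and 503 of *Fgfr4*, against at most 4953, 1070, 424 and 369 in the others. The make-up of the receptors in it was close to theirs, with *Fgfr1* at 70.5% of the 4 against 72.0% and 72.4%, and *Fgfr3* at 6.99% against 5.42% and 6.45%.

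NT RNA-Seq replicate 1 held 804 normalized reads of *Spry4* against 97.7 and 45.6 in the other NT RNA-Seq libraries, while NT Ribo-Seq had 189, 159 and 126. In the same library *Fgfr1* was at 4702 against 3897 and 4282, *Fgfr2* at 2517 against 2558 and 1759, *Fgfr3* at 6551 against 6226 and 5744 and *Fgfr4* at 273 against 124 and 220.1. The log2 TE of *Fgfr4* in NT was -1.79 in replicate 1 and -0.39 and 0.05 in the others.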
